A study of Mus musculus with 10 samples.

Results

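The 32 genes described here make up a list of the unfolded protein response and of the chaperones of the endoplasmic reticulum (ER). For each gene, the probe set annotated to it alone with the highest mean over all 10 arrays was taken. All 32 genes had such a probe set, out of 18193 genes measured in all. The list holds 9 chaperones and co-chaperones, 6 lectin chaperones and disulfide isomerases, 8 sensors and transcription factors, and 9 genes of ER-associated degradation.

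The cells were keratinocytes, which make up most of the epidermis, put into primary culture from the skin of mice labelled Sgpp1+/+ (WT, 5 arrays, of samples numbered 1 to 5) or Sgpp1-/- (KO, 5 arrays, of samples numbered 8, 9, 10, 21 and 23). Each array is named by its group and sample number. Both groups were cultured for 3 to 4 days with 0.05 mM calcium and 8% fetal calf serum, a low calcium medium in which mouse keratinocytes are usually held in a basal, dividing state. Sgpp1 encodes a phosphatase of the ER that dephosphorylates sphingosine-1-phosphate. The series set KO against WT. The labels give neither the strain, the age nor the part of Sgpp1 that was removed. They leave unsaid if each sample was its own animal or culture, so the p-values measure the spread between these samples, which may be technical. Each array gave 1 log2 signal per probe set.

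Proteins that enter the secretory route are folded in the ER by chaperones and disulfide isomerases, and those that fail are moved back to the cytosol and degraded. When unfolded proteins build up, 3 sensors in the ER membrane respond. IRE1, encoded by Ern1, splices the Xbp1 transcript into one that encodes an active factor. ATF6 is cut in the Golgi and enters the nucleus, and PERK, encoded by Eif2ak3, slows translation and raises the translation of ATF4. XBP1 and ATF6 bind promoter elements of chaperone and degradation genes, and ATF4 drives Ddit3, Trib3 and amino acid genes. In the epidermis the ER also supplies the lipids and secreted proteins of the maturing layers.

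The response is read at the DNA through short elements close to the transcription start, and promoter stretches are shown because they are the common input of many of these genes. The RefSeq promoter table (GRCm38.p6) held 28 of the 32 genes. The 250 bases before each start were searched on both strands for the ER stress response element (ERSE), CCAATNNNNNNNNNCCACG, in which N is any base. It was found in 9 of the 28 genes (32.1%), against 35 of all 27025 genes in the table (0.13%), these 9 included. By promoter the share was 37 of 32851 (0.113%). Such elements are known from chaperone genes, as said above, so this contrast is not a finding of these arrays. The 9 genes were Hspa5, Hsp90b1 with 2 copies, Dnajc3, Creld2, Calr, Canx, Pdia6, Syvn1 and Derl3. The shorter ERSE-II, ATTGGNCCACG, was in 10 promoters (0.0304%) and among the 28 genes only in Herpud1. Of the other elements searched, TGACGTG, the core of the UPR element, was in 1.65% of promoters and here only in Hspa5, and the C/EBP-ATF element TGATGNAA was in 3.45% and here only in Herpud1. The stretches below are written 5′ to 3′ along the gene's own strand, with the element in capitals and 10 bases on each side. They lie at chr2:34772015-34772053 (plus strand) for Hspa5, chr10:86705628-86705666 and chr10:86705523-86705561 (minus strand) for the copies of Hsp90b1, chr15:88819510-88819548 (plus) for Creld2, chr8:84847065-84847103 (minus) for Calr, chr19:6046522-6046560 (plus) for Syvn1, and chr8:94386367-94386397 (plus) for Herpud1.
Hspa5 ERSE: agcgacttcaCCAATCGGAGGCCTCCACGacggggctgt
Syvn1 ERSE: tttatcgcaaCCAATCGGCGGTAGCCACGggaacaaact
Hsp90b1 ERSE, first copy: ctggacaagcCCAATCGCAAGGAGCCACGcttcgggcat
Hsp90b1 ERSE, second copy, opposite orientation: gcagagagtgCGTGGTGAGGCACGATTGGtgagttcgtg
Creld2 ERSE, opposite orientation: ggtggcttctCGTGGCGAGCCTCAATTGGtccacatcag
Calr ERSE, opposite orientation: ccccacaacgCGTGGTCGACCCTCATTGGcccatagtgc
Herpud1 ERSE-II: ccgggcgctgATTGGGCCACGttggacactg

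Dnajb9, the gene with the largest difference in the list, held 0 of the 4 elements. Its 250 bases, at chr12:44210069-44210318 on the minus strand, are set beside those of Hspa5, at chr2:34771840-34772089 on the plus strand, which hold the UPR element core and the ERSE, both in capitals. A match is a description of letters and not a site in use, and the lack of one says only that those letters are not in this window.
Hspa5 promoter: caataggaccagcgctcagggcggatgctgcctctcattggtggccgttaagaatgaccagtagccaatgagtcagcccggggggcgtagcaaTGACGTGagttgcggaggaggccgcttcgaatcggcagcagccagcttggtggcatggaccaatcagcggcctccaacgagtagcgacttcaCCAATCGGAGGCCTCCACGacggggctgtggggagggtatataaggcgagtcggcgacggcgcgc
Dnajb9 promoter: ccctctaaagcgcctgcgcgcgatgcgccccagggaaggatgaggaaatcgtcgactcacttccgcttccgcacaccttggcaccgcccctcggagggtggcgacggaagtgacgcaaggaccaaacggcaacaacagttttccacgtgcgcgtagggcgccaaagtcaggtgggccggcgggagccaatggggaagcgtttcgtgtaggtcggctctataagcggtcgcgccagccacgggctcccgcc

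Several facts of the arrays bear on all values. Sgpp1 itself had a mean log2 signal of 7.67 ± 0.84 (SD, n = 5) in WT and 8.82 ± 0.24 in KO (adjusted p = 0.102, limma with Benjamini-Hochberg adjustment). All 5 arrays labelled KO lay above every WT array, a difference of 1.15 or 2.22-fold, so the signal of the targeted gene was not lower where the label says it was removed. This difference passed the threshold without WT 1 (0.80, adjusted p = 0.0356) and with array weights (0.77, adjusted p = 0.0383). Whether its probe set lies in the removed part is not given in the sources used here. In the running order of the labels, arrays 1 to 5 are WT and arrays 6 to 10 are KO (samples 21 and 23 are arrays 6 and 7), so array order and genotype cannot be told apart. The basal keratins Krt5 (12.78 in WT and 12.73 in KO) and Krt14 (12.69 and 12.72) were near the top of the scale in both groups, and 0 of 9 basal markers were called. All 14 suprabasal markers were called higher in KO with groups that did not overlap, and their summed log2 level ran from 13.01 to 13.91 in WT and from 14.75 to 15.09 in KO. Markers of fibroblasts (0 of 11 called, summed level 9.76 to 13.97 in WT and 9.88 to 12.36 in KO), melanocytes (0 of 8, 9.86 to 13.12 and 11.35 to 13.07) and myeloid cells (0 of 11, 9.45 to 11.37 and 9.01 to 11.30) varied widely within both groups, and 7 of the 11 myeloid markers were within the background range, at or below 5.57, set from genes of other tissues. Of the 12 immediate early genes 2 were called higher in KO. In bulk RNA, fewer cells of a type and less RNA per cell cannot be told apart.

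The arrays WT 1, WT 2 and KO 8 stood apart. Their poly-A spike-ins, RNAs added to the sample, averaged 10.72 to 11.34 on the log2 scale against 9.86 to 10.39 on the other 7 arrays, and Fosb, an immediate early gene, stood between 7.36 and 9.22 on them against 3.56 to 4.31. WT 1 also had the lowest mean correlation with the other arrays, 0.955 against 0.967 or more. The same arrays were low for the ER genes. WT 1 was the lowest WT array in 19 of the 32 genes (59.4%), against 28.0% of all genes, 45.8% of the brighter 50% and 59.1% of 186 other genes of the pathway, so the low values on WT 1 were as frequent among the latter. KO 8 was the lowest KO array in 22 of 32 (68.8%), against 18.1% of all genes, 19.2% of the brighter 50% and 17.2% of those 186. The summed melanocyte level was also lowest on WT 1 (9.86) within WT and on KO 8 (11.35) within KO. The summed fibroblast level was lowest on the same arrays (9.76 and 9.88). WT 5 was nearly as low for fibroblasts (9.80) and was not low for the ER genes as a whole. The part of these arrays and markers in the differences was not tested, beyond the values given below without the 3 arrays.

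**Figure D1:**
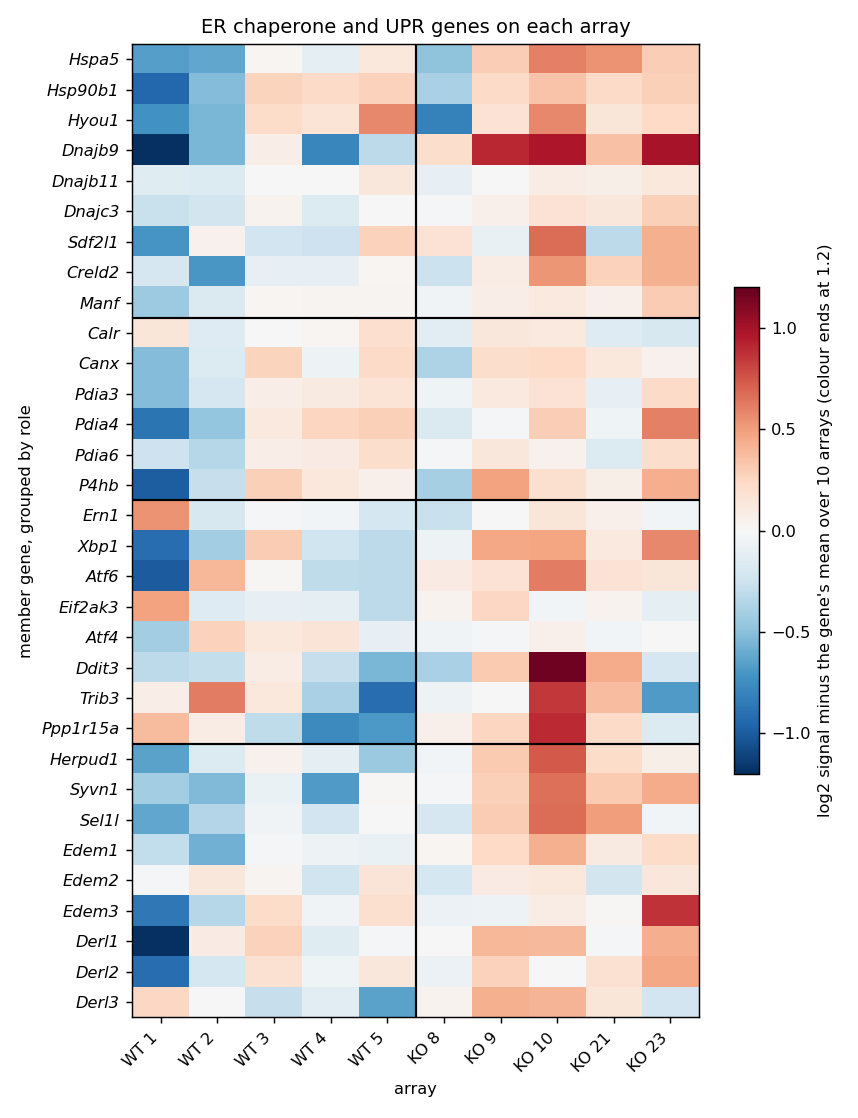
Each row is 1 of the 32 genes, grouped by role, and each column 1 array; colour gives the log2 signal minus that gene's mean over the 10 arrays. WT 1 is the lowest WT array in 19 genes and KO 8 the lowest KO array in 22.

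Of the 32 ER genes, 1 rose in KO and 0 fell at an adjusted p under 0.05. Dnajb9, which encodes the ER co-chaperone ERdj4, was the gene that rose. Over all 18193 genes, 2.30% were called higher and 0.346% lower. At an unadjusted p under 0.05, 8 of the 32 were higher (7.33% of all genes) and 0 lower (5.65%). These were Hspa5, Dnajb9 and Creld2 among the chaperones, Xbp1 among the transcription factors, and Herpud1, Syvn1, Sel1l and Edem1 among the degradation genes. In 2 genes, Dnajb9 and Edem1, every KO array lay above every WT array (3.36% of all genes), and in 0 every KO array lay below (1.02%). The difference was above 0 in 28 of 32 (87.5%), against 47.6% of all genes, with a median of 0.32 (quartiles 0.12 and 0.49) against -0.01. The list was chosen with earlier results of these data known, and its genes were read on the same arrays. This contrast is therefore a description and not a test.

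The level of the list as a whole varied between arrays of a group. After subtraction of each gene's own mean, the median of the 32 genes was -0.47, -0.21, 0.05, -0.10 and 0.02 on WT 1 to 5, and -0.06, 0.19, 0.37, 0.12 and 0.23 on KO 8, 9, 10, 21 and 23. The KO arrays other than KO 8 lay above the highest WT array, and KO 8 lay between WT arrays. Without WT 1, WT 2 and KO 8 the median difference was 0.21, against 0.01 for all genes, 26 of 32 were above 0 (52.4% of all genes), and in 10 the remaining KO arrays all lay above the remaining WT arrays (9.58% of all genes). Those 10 were Hspa5, Dnajb9, Dnajc3, Creld2, Manf, Atf6, Ppp1r15a, Herpud1, Syvn1 and Edem1. Leaving out KO 8 removes the lowest KO array in 68.8% of the 32 genes but in 18.1% of all genes. The count of 10 and the share of 9.58% are therefore not like for like. Without KO 8 alone, 8 of the 32 did not overlap (4.55% of all genes). Without WT 1 alone the median was 0.20.

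**Figure D2:**
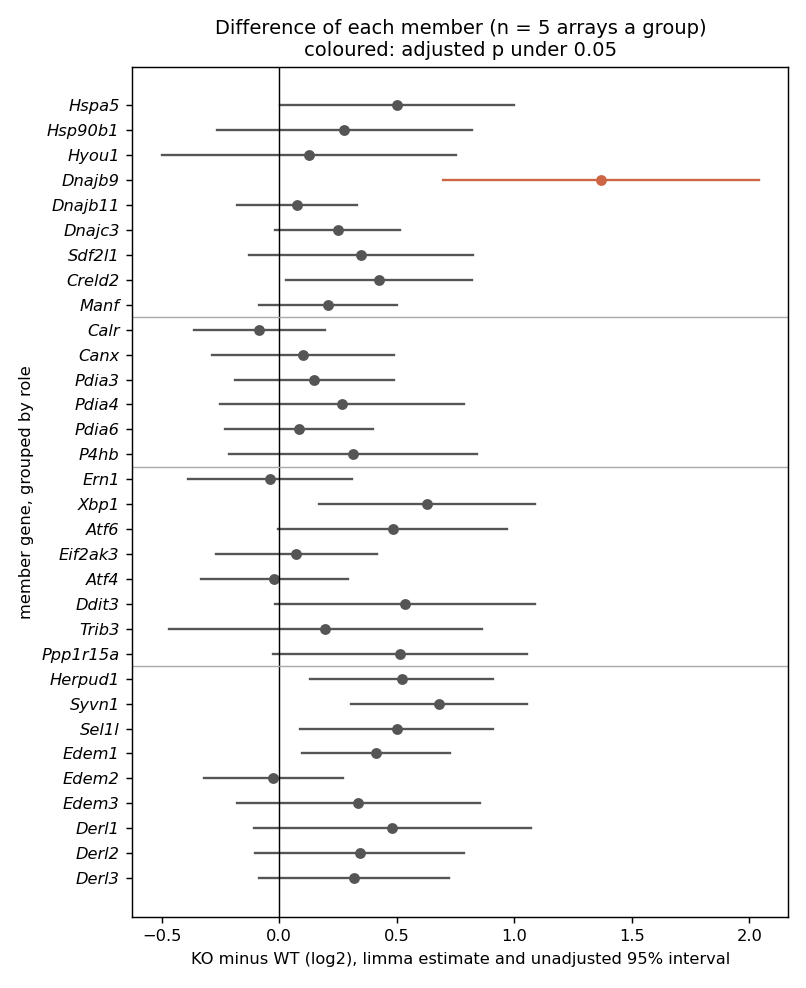
The x axis gives the KO minus WT difference in log2 signal for each gene (point, limma estimate) with its unadjusted 95% interval (line), n = 5 arrays a group. Dnajb9 at 1.37 is coloured as the 1 gene past the adjusted threshold; 28 of 32 points lie above 0.

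Among the chaperones and co-chaperones, all 9 differences were above 0 (47.6% of all genes), with a median of 0.28. Of the 9, 1 was called (2.30% of all genes called higher). Dnajb9 encodes a J-domain partner of BiP that helps to hand misfolded proteins to degradation and restrains IRE1. Its log2 signal was 6.52, 7.81, 8.44, 7.58 and 8.05 on WT 1 to 5, and 8.57, 9.27, 9.33, 8.71 and 9.35 on KO 8, 9, 10, 21 and 23. The lowest KO array, KO 8, thus lay just above the highest WT array, WT 3, and WT 1 lay far below the other WT arrays. The means were 7.68 ± 0.72 and 9.05 ± 0.38 (SD, n = 5), a difference of 1.37 (SE 0.31, interval 0.70 to 2.04), or 2.58-fold, with an adjusted p of 0.034. Without the 3 arrays that stood apart it was 1.15 (adjusted p = 0.0433). The call was lost when WT 2, WT 4, KO 9, KO 10, KO 21 or KO 23 was left out (adjusted p 0.0511 to 0.111), while the difference stayed between 1.08 and 1.56 over all 10 arrays left out in turn. Dnajb9 has a single probe set, whose p adjusted over all 45037 probe sets was 0.0577.

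Hspa5 encodes BiP, the main HSP70 of the ER, which keeps the sensors inactive while it is bound to them. Its log2 signal was 10.52, 10.56, 11.21, 11.07 and 11.31 in WT, and 10.70, 11.48, 11.79, 11.72 and 11.48 in KO, arrays in the order above. All KO arrays but KO 8 exceeded every WT array, and KO 8 was close to WT 1 and WT 2. The difference of 0.50 (SE 0.23, interval 0.005 to 0.998) did not pass (adjusted p = 0.378). A second bright probe set of Hspa5 gave 0.49.

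Creld2, a secreted ER factor that is a classic target of the stress response, was at 9.31, 8.82, 9.42, 9.42 and 9.54 in WT and at 9.26, 9.60, 10.04, 9.79 and 9.94 in KO. Again only KO 8 lay within the WT range (difference 0.42, adjusted p = 0.336). Dnajc3, known as P58IPK, which binds BiP and unfolded clients, differed by 0.25 (0.430), and Manf, a secreted factor that binds BiP, by 0.21 (0.608), in parentheses the adjusted p. Sdf2l1, which works with BiP and Dnajb11 in the same complex, differed by 0.35 (0.590), and Dnajb11, the co-chaperone ERdj3, by 0.08 (0.888), with 5 WT arrays between 10.33 and 10.63 and 5 KO arrays between 10.40 and 10.62.

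Hsp90b1 encodes GRP94, the HSP90 of the ER, and was among the genes most affected by the arrays that stood apart. It was at 10.58, 11.00, 11.79, 11.75 and 11.80 in WT and at 11.13, 11.75, 11.86, 11.75 and 11.81 in KO. Outside WT 1, WT 2 and KO 8, all 7 arrays lay between 11.75 and 11.86, and the difference was 0.28 with all arrays (adjusted p = 0.752) and 0.01 without the 3. Hyou1, a large HSP70 relative that exchanges nucleotide on BiP, showed the same layout, with 9.30 and 9.48 on WT 1 and WT 2, 9.22 on KO 8, and 10.17 to 10.60 on the rest. Its difference was 0.13 with all arrays (adjusted p = 0.933) and -0.04 without the 3.

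**Figure D3:**
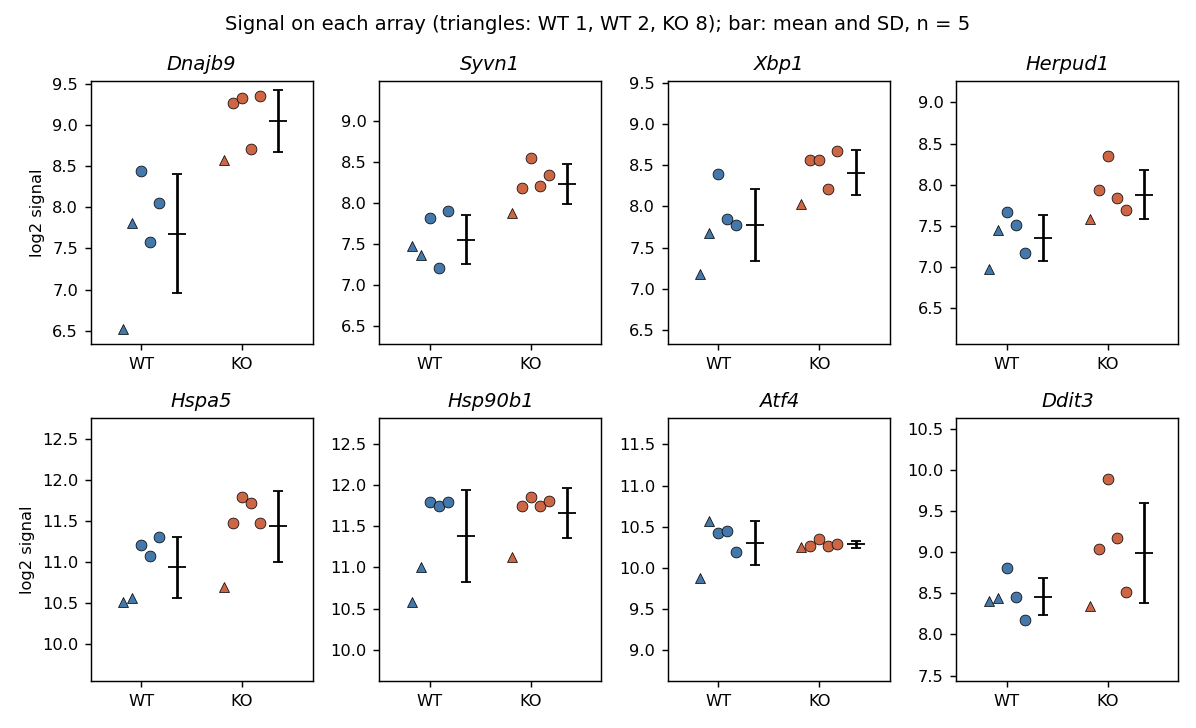
Each point is the log2 signal of 1 array for 8 of the genes, with triangles for WT 1, WT 2 and KO 8 and a bar for the mean and SD (n = 5); all panels span the same log2 range. Dnajb9 is the gene whose 5 KO arrays (8.57 to 9.35) all exceed WT (6.52 to 8.44), Hsp90b1 is low on the triangles only, and Atf4 on KO arrays lies within 10.25 to 10.35.

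None of the 6 lectin chaperones and disulfide isomerases passed the test, and their median difference was 0.13. Calr, the soluble lectin calreticulin, was at 11.52, 11.22, 11.37, 11.40 and 11.57 in WT and 11.25, 11.51, 11.49, 11.22 and 11.18 in KO. The groups overlapped throughout, and the difference was -0.08 (interval -0.36 to 0.19, adjusted p = 0.884). Canx, its membrane-bound relative calnexin, differed by 0.10 (0.907).

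The disulfide isomerases form and rearrange disulfide bonds in ER clients. P4hb, the main isomerase PDI, differed by 0.32 (adjusted p = 0.691), Pdia4 by 0.27 (0.750), Pdia3, the partner of the lectin chaperones, by 0.15 (0.803), and Pdia6, which also acts on the sensors, by 0.08 (0.904). In P4hb, Pdia3 and Pdia4 the lowest array of all was WT 1, at 9.68, 10.56 and 7.75. Without the 3 arrays Pdia3 stood at -0.01, Pdia4 at -0.01 and Pdia6 at -0.07, values that lie on the other side of 0.

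Among the sensors and transcription factors, 0 of 8 passed, and the median difference was 0.34. Xbp1, the factor downstream of IRE1, had the largest, 0.63 (SE 0.21, interval 0.17 to 1.09, adjusted p = 0.183). Its signal was 7.18, 7.68, 8.40, 7.85 and 7.78 in WT and 8.03, 8.56, 8.57, 8.21 and 8.67 in KO. WT 3 reached into the KO range, and the other WT arrays lay below every KO array. Its other 3 probe sets gave 0.61, 0.74 and 0.80. These probe sets report the total transcript and were not used to tell the spliced from the unspliced form.

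Atf6, the factor that is cut in the Golgi, differed by 0.48 (adjusted p = 0.391). It was lowest on WT 1 (6.81) and highest on KO 10 (8.42), and WT 2 at 8.21 lay above every KO array but KO 10. The other, dimmer probe sets of Atf6 gave 0.43 and 0.83. The sensors Ern1 and Eif2ak3 differed by -0.04 (0.968) and 0.07 (0.930). For both the highest WT array was WT 1, at 7.35 and 7.13, opposite to most of the list. Among the probe sets of Eif2ak3 that did not stand for the gene, 1 gave 0.66 and 1 gave -0.08. Those of Ern1 gave 0.39, 0.28, 0.20 and 0.19.

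Downstream of PERK, Atf4 was at 9.88, 10.57, 10.42, 10.45 and 10.19 in WT and at 10.25, 10.27, 10.35, 10.26 and 10.29 in KO. The KO arrays lay close together inside the WT range, with a difference of -0.02 (interval -0.33 to 0.29, adjusted p = 0.982). ATF4 is controlled mainly at translation, which arrays do not measure. Ddit3, the factor CHOP that promotes cell death under lasting stress, was at 8.41, 8.44, 8.81, 8.45 and 8.18 in WT and at 8.34, 9.04, 9.89, 9.17 and 8.52 in KO. Its KO values spread from below WT 1 to far above WT 3, with KO 10 highest (difference 0.53, adjusted p = 0.414), and its other probe set gave 0.18.

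Ppp1r15a, or GADD34, the phosphatase subunit that ends the PERK signal, was at 7.65, 7.36, 6.97, 6.51 and 6.58 in WT and at 7.33, 7.53, 8.17, 7.50 and 7.11 in KO. Here WT 1 and WT 2 were the highest WT arrays, and the difference was 0.52 with all arrays (adjusted p = 0.422) and 0.89 without the 3 (0.114). Trib3, a pseudokinase induced by ATF4 and CHOP, differed by 0.20 (0.888), with WT from 7.68 to 9.21 and KO from 7.92 to 9.45.

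ER-associated degradation held 4 of the 8 genes with an unadjusted p under 0.05, with 8 of 9 differences above 0, a median of 0.41 and 0 called. Over all genes, 7.33% were higher at that p and 47.6% lay above 0. Syvn1 encodes HRD1, the ubiquitin ligase at the centre of the machinery. It was at 7.47, 7.36, 7.81, 7.21 and 7.90 in WT and at 7.88, 8.18, 8.55, 8.20 and 8.34 in KO. Only KO 8 lay below the highest WT array, and by a small step. The difference was 0.68 (SE 0.17, interval 0.31 to 1.05), with an adjusted p of 0.0607. It passed when WT 5 or KO 8 was left out (0.0408 and 0.0405) and with array weights (0.0131), but its other, dimmer probe set gave 0.10, and the mean over both gave 0.39 (0.238).

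Sel1l, the partner that stabilises HRD1, was at 9.30, 9.57, 9.88, 9.69 and 9.91 in WT and at 9.72, 10.22, 10.59, 10.42 and 9.89 in KO. KO 8 and KO 23 lay within the WT range, and the difference was 0.50 (adjusted p = 0.247), with 0.22 to 0.50 from its other 4 probe sets. Herpud1, a membrane protein that gathers the HRD1 complex and carries the ERSE-II shown above, was at 6.97, 7.45, 7.67, 7.51 and 7.17 in WT and at 7.58, 7.93, 8.35, 7.84 and 7.69 in KO. Again KO 8 was the KO array inside the WT range. The difference was 0.52 (SE 0.18, interval 0.13 to 0.91, adjusted p = 0.196), and its other probe set gave 0.63, with a p adjusted over all probe sets of 0.0583.

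Edem1 encodes a lectin that extracts misfolded glycoproteins from the folding cycle. It was at 8.91, 8.63, 9.19, 9.14 and 9.12 in WT and at 9.23, 9.44, 9.63, 9.31 and 9.42 in KO. The groups did not overlap, though KO 8 and WT 3 were only a little apart, and the difference of 0.41 (SE 0.14, interval 0.10 to 0.73) did not pass (adjusted p = 0.205). Its relatives Edem2 and Edem3 differed by -0.02 (0.977) and 0.34 (0.652), and for Edem3 the highest array was KO 23 (7.45).

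The derlins form part of the channel through which clients leave the ER. Derl1 differed by 0.48 (adjusted p = 0.523), with WT 1 at 7.63 and the 9 other arrays between 8.88 and 9.46. Derl2 differed by 0.34 (0.558), also with WT 1 lowest (8.77). Derl3 differed by 0.32 (0.546) at group means of 3.72 and 4.04, and was the 1 gene of the list within the background range.

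Differences of similar size were found with and without an ERSE in the promoter window, and the sets were not tested against each other. The 9 genes with the element had a median difference of 0.28 (range -0.08 to 0.68), with 8 above 0, 3 at an unadjusted p under 0.05 and 0 called. The 19 genes of the table without it had a median of 0.34 (range -0.04 to 1.37), with 16 above 0, 5 at that p and 1 called. Over all genes, 7.33% were higher at that p and 47.6% lay above 0. Among genes with an ERSE, Calr (-0.08) and Canx (0.10) lay near 0, while Syvn1 was at 0.68 and Hspa5 at 0.50. Among those without it, Atf4 and Edem2 (each -0.02) and Ern1 (-0.04) lay near 0. Dnajb9, with none of the elements searched, was at 1.37. The other probe sets of Canx gave 0.33 and 0.43, and Derl3, with an ERSE, was within the background range.

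The other genes of the pathway were spread to both sides of 0. Of 194 further genes listed, 186 had a probe set. Of these, 0 were called higher and 1 lower (2.30% and 0.346% of all genes). At an unadjusted p under 0.05, 9 were higher and 9 lower (7.33% and 5.65% of all genes). Above 0 were 100 of 186 (53.8%, against 47.6% of all genes), with a median of 0.01. WT 1 was their lowest WT array in 110 (59.1%) and KO 8 their lowest KO array in 32 (17.2%). The gene that fell was Shmt2, a mitochondrial serine hydroxymethyltransferase and ATF4 target. It was at 10.06, 10.42, 10.12, 10.22 and 10.06 in WT and at 9.81, 9.33, 9.62, 9.40 and 9.40 in KO. The groups did not overlap, and the difference was -0.66 (SE 0.14, adjusted p = 0.0219), or 1.58-fold lower. The call was lost without WT 2, WT 4, KO 9, KO 10 or KO 21 (adjusted p up to 0.0796) and with the mean of its probe sets (-0.48, adjusted p = 0.0968).

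**Figure D4:**
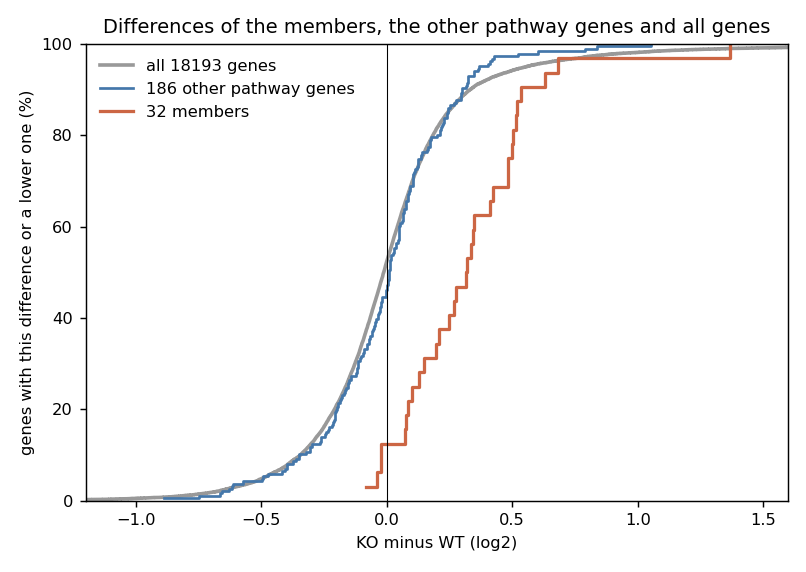
The y axis gives the percentage of genes whose KO minus WT difference (log2, x axis) is at or below each value, for the 32 genes of the list, the 186 other pathway genes and all 18193 genes. The curve of the list lies to the right (median 0.32), and those of the other pathway genes (0.01) and of all genes (-0.01) cross 50% near 0.

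By function, the further folding enzymes had 8 of 21 differences above 0 (median -0.02), with Txndc5, a disulfide isomerase, at -0.49 (adjusted p = 0.118) and Selenom, a selenoprotein of the ER, at -0.89 (0.194). Cofactors and glycoprotein quality control had 11 of 17 above 0 (median 0.06), with Sdf2 at 0.41 (0.265) and Sec63, a J-domain protein of the translocon, at 0.24 (0.444). The further degradation and ubiquitin genes had 17 of 24 above 0 (median 0.09), with Ngly1, which removes sugars from clients in the cytosol, at 0.52 (0.164) and the ubiquitin-conjugating enzyme Ube2g2 at 0.32 (0.311). None of these genes passed the test.

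The translocon and signal peptide genes had 18 of 29 above 0 (median 0.05), with Ssr4 at 0.60 (adjusted p = 0.450). In 27 of these 29 genes WT 1 was the lowest WT array (93.1%, against 45.8% of the brighter 50% of all genes). Ssr4 ran from 0.27 to 0.74 with arrays left out in turn and from 0.22 to 0.60 in the other settings. Sec11c, a catalytic subunit of the signal peptidase, was at 8.26 to 9.39 in WT and 9.41 to 10.05 in KO, groups that did not overlap. Its difference of 0.79 had an adjusted p of 0.0829. That difference ran from 0.60 to 0.89 with arrays left out in turn and from 0.40 to 0.79 in the other settings. ER to Golgi transport had 17 of 28 above 0 (median 0.03), with Sec16a, which organises ER exit sites, at 0.22 (0.483, KO above WT on every array) and Kdelr2, a retrieval receptor, at -0.26 (0.538).

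In the further list of the amino acid response and PERK branch, 12 of 36 differences were above 0 (33.3%, against 47.6% of all genes), with a median of -0.09. It leaves out the genes of this branch among the 32: Ddit3 (0.53), Ppp1r15a (0.52), Trib3 (0.20), Eif2ak3 (0.07) and Atf4 (-0.02). Slc7a11, the cystine transporter and an ATF4 target, was at 1.05 (adjusted p = 0.122), and Shmt2 at -0.66. Of these 36 genes, 3 were higher and 5 lower at an unadjusted p under 0.05 (7.33% and 5.65% of all genes). The ATF6 relatives, processing proteases and regulators had 17 of 31 above 0 (median 0.01), with the apoptosis effector Bak1 at -0.66 (0.239) and Creb3l2, a relative of ATF6, at -0.50 (0.310).

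The chosen probe sets ran from -0.08 to 1.37 (Dnajb9, which has no other), and the other probe sets of the listed genes from -0.11 (Edem3) to 0.83 (Atf6). There were 44 other probe sets over 24 genes, with a median difference of 0.28. Of the 44, 33 had the sign of the probe set that stands for the gene and 11 the opposite. With p adjusted over all 45037 probe sets, 0 of these 44 and 0 of the 32 chosen probe sets passed by limma. In the limma fit over genes 1 of the 32, Dnajb9, passed the adjusted threshold. There 8 of the 32 were higher at an unadjusted p under 0.05 (7.33% of all genes).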

How the data were processed

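The deposited values are log2 expression values from Affymetrix Mouse430_2 arrays, 1 per probe set and sample, made by the authors with robust multi-array averaging (RMA), as the submitters' processing notes state. It corrects background, equalises the distributions of the arrays and combines probes, so differences of dim genes are compressed and a shift common to most genes cannot be seen. The RMA software and version are not given in the sources used here. The values ran from 1.13 to 14.92, with array medians from 5.02 to 5.17, and were used as deposited. The number of arrays, 5 a group, limits the precision.

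Of 45101 probe sets, 64 controls were left out, and 34945 were annotated to 1 gene, 932 to several and 9160 to none. For 34741 the gene identifier was found in the RefSeq gene table. The brightest probe set over all arrays stood for a gene, which gave 18193 genes. KO minus WT was fitted with limma 3.58.1 in R 4.3.3 (lmFit, eBayes, two-sided, no covariates), with Benjamini-Hochberg adjustment over all genes and a threshold of 0.05. SE is the moderated standard error, and every adjusted p in the text is from this fit unless another is named. The background range ends at the 90th percentile of the group means of 18 genes of other tissues. Promoter windows were searched in Python 3.11.15. The limma step was tested on simulated data.

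The 32 genes and all lists were chosen with earlier results of these data known. Named genes were the 32, Sgpp1, each called gene of the other pathway lists, the 2 with the smallest p in each of those, and the 2 brightest genes of each marker list. The named marker genes were Krt5, Krt14, Krtdap, Sbsn, Col1a1, Col1a2, Dct, Tyrp1, Lyz2, Cd68, Jun, Ier3, Ins2 and Prm1. Fosb was named after its values were seen. Alternatives were the mean of a gene's probe sets, a second quantile normalisation, the brighter genes only, a trended robust eBayes, array weights, leaving out WT 1, WT 2 and KO 8 together, and leaving out each array in turn. All 10 columns were used, and 0 were left out.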

Additional observations from a re-analysis of the deposited data

Results flagged for a closer look

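In 7 of 64 groups of 5 arrays (32 genes in 2 groups), 1 array lay far from the nearest other of its group, by a gap of more than 0.71 of the whole range. For single groups of normally spread values this is met in about 1 in 20, or 3.2 of 64. The 64 groups share the same 10 arrays and are not independent, so 7 cannot be judged against 3.2. KO 8 lay low for Hspa5 (10.70, nearest 11.48) and for Hsp90b1 (11.13, nearest 11.75). WT 1 lay low for Derl1 (7.63, nearest 8.88) and high for Ern1 (7.35, nearest 6.80) and Eif2ak3 (7.13, nearest 6.55). KO 10 lay high for Atf6 (8.42, nearest 7.98), and KO 23 lay high for Edem3 (7.45, nearest 6.67).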

How the results depend on the processing

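Over the 16 settings (15 for Derl3), 22 of the 32 genes kept the sign of their difference, and 3 were called in at least 1 setting: Dnajb9, Syvn1 and Ppp1r15a. No paired analysis was possible because the groups share no replicate number. With the mean of all probe sets, 4 of the 32 genes had KO above WT on every array (3.3% of all genes). There 0 other pathway genes were called lower. In that setting Calr was at 0.026, Ern1 at 0.21, Atf4 at 0.098 and Edem2 at 0.0069. After a second quantile normalisation, 119 genes were called lower, and 1 of the 32 had KO above WT on every array (3.29% of all genes). Also 2 other pathway genes were called lower, and Krt14 was at -0.060. Among the 9096 brighter genes, which leave out Derl3, 412 were called higher. Of the 31 listed genes among them, 2 were called higher, Syvn1 with an adjusted p of 0.0413. With array weights, 877 genes were called higher, 561 were called lower, 3 of the 32 were called higher (Ppp1r15a with adjusted p = 0.0321), and 4 other pathway genes were called higher and 7 lower. There Calr was at 0.0037, Ern1 at 0.066, Edem2 at 0.086 and Krt14 at -0.028. Without WT 1, WT 2 and KO 8, 10 of the 32 did not overlap (9.58% of all genes, not like for like as said above). The differences were -0.037 for Hyou1, -0.0069 for Pdia3, -0.013 for Pdia4 and -0.070 for Pdia6. Ern1 was at 0.13, Edem2 at 0.058 and Krt14 at -0.048. The causes of these changes were not tested.

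Leaving out each array in turn gave 264 (without KO 9) to 419 genes called higher, while 13 (without KO 9) to 107 (without KO 23) were called lower. Of the 32, 0 to 2 were called and 2 to 8 did not overlap (8 without KO 8). Over all genes, KO lay above WT on every remaining array in 3.53% to 4.59% (4.55% without KO 8). Of the other pathway genes, 0 to 1 were called higher and 0 to 2 lower. The differences ran from -0.038 to 0.34 for Hyou1, -0.017 to 0.21 for Canx, -0.096 to 0.091 for Ern1, -0.13 to 0.045 for Atf4, -0.0085 to 0.39 for Trib3 and -0.086 to 0.028 for Edem2. Among the marker genes they ran from -0.024 to 0.062 for Krt14, -0.77 to 0.32 for Col1a1, -0.77 to 0.37 for Col1a2, -0.044 to 0.18 for Ier3, -0.022 to 0.20 for Prm1 and -0.058 to 0.20 for Ins2.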
